A study of Rattus norvegicus with 16 samples.

Results

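The T cell receptor complex and the T cell lineage genes were examined here as a set of 10 genes, Cd3d, Cd3e, Cd3g, Cd247, Cd4, Cd8a, Cd8b, Cd2, Cd5 and Lck, out of 21021 genes listed for each sample. A gene was taken when its symbol in the per-sample expression lists was equal to one of these names, and each of the 10 names matched 1 row. Lumbar dorsal root ganglia (DRGs), which hold the cell bodies of the sensory neurons of the hind limb, were collected from female Sprague-Dawley rats after tumor cell implantation (TCI) or a sham operation and sequenced as bulk RNA. The DRGs of the injected side of 1 animal were pooled as 1 sample, and 16 samples fell into 4 groups of 4. In the TCI groups, mammary gland carcinoma cells passaged as ascites in rats were injected into the left tibia, and DRGs were collected on day 1, day 7 or day 14. The sham group was collected on day 14 only, so that on day 1 and day 7 the effects of the tumor and of the time since the operation cannot be told apart. The labels describe the sham injection as PBS, and the methods of the study describe boiled tumor cells, so the injected material of the sham group is not settled.

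T cells recognize peptides through the T cell receptor, whose antigen-binding chains have almost no cytoplasmic part of their own. The signal is carried into the cell by the CD3 chains: Cd3d, Cd3e and Cd3g encode CD3δ, CD3ε and CD3γ, and Cd247 encodes the ζ chain. The co-receptors CD4 and CD8 bind MHC class II and class I molecules and bring the kinase LCK to the receptor, and they divide mature T cells into helper and cytotoxic lineages. CD8 on conventional T cells is a pair of an α chain (Cd8a) and a β chain (Cd8b). CD2 is an adhesion receptor of T cells and NK cells, and CD5 damps the signal of the receptor. In the rat, CD4 is also carried by monocytes and macrophages, so that Cd4 alone does not mark helper T cells.

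Cd3g, Cd3d and Cd3e lie side by side on rat chromosome 8, and their promoters are printed because these genes shared a time course. The sequences are RefSeq's, on the build GRCr8, 250 bases before to 50 bases after the start site, for 8 of the 10 genes (Cd4 and Cd8b had no entry). The promoter of Cd3g is chr8:54183869-54184168 on the minus strand, that of Cd3d is chr8:54185269-54185568 on the plus strand and that of Cd3e is chr8:54211721-54212020 on the minus strand. The start sites of Cd3g and Cd3d were 1601 bases apart with the genes pointing away from each other, and that of Cd3e was 26251 bases from that of Cd3d. Cd8a, at chr4:104923866-104924165 on the plus strand, is shown for the co-receptor. Capitals mark matches, on either strand, to 4 short motifs of transcription factors that lymphocytes use.
Cd3g: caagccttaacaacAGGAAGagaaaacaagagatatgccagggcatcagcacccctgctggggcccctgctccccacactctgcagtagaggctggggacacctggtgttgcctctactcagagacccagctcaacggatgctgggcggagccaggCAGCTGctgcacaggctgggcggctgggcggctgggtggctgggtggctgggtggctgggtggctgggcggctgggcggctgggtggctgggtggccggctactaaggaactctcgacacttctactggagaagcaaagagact
Cd3d: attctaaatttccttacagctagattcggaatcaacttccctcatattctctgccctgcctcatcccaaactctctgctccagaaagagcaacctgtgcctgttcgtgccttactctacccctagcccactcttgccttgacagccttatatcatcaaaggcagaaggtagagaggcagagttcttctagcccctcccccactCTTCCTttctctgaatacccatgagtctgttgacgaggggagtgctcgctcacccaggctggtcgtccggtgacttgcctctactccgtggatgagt
Cd3e: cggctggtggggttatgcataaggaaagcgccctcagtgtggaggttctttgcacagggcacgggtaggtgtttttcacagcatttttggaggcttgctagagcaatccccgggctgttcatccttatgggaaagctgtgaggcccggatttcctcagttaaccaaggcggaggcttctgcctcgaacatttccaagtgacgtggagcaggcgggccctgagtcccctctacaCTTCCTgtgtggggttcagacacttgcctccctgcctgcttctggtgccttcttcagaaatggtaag
Cd8a: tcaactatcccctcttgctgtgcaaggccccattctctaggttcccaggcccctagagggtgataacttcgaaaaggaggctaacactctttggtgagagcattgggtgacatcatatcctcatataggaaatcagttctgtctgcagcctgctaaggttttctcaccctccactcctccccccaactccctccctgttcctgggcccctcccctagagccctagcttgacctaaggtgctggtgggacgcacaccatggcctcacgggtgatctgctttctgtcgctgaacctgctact
The Ets letters, AGGAAG, were held by 34.5% of the 33469 promoters of this length, and the E-box letters, CAGCTG, which read the same on both strands, by 15.1%. The Runx letters, TGTGGT, were held by 17.3% of those promoters, and finally the Gata letters, AGATAA, by 11.6% of the same set. The Ets letters stood in each of the 3 CD3 promoters, on the reverse strand starting 47 bases before the start site of Cd3d and 17 bases before that of Cd3e. In Cd3g they lay on the gene's own strand 236 bases before the start site, with the E-box letters at 94 bases. The Cd8a window held none of the 4 motifs. These matches describe the letters only.

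Values are FPKM, fragments scaled to transcript length and to the mapped reads of the library, as the authors deposited them, and levels of different genes can be compared on this scale because it is per length. The relative depth of the 16 libraries, read from the steps between low values, ran from 0.914 to 1.09. The study left out day 1 replicate 2 and day 7 replicate 3, and the same 14 samples were used for the means and tests here. The values of the other 2 are given beside them for several of the 10 genes, and some ranges include them. Day 7 replicate 3 stood apart in 12 skeletal muscle markers, whose summed FPKM was 25960 in this sample, 597 in sham replicate 4 and 10.1 to 23.2 in the other 14. Day 14 replicate 2 stood apart in other lists, with the highest sums of all samples for macrophage and NK cell markers. The 16 sensory neuron markers summed to 10922 to 19111 FPKM, with Nefl, a neurofilament gene, at 2655 to 4699 FPKM, so that the neurons of the labelled tissue were present in each sample. Changes were tested by limma on log2(FPKM + 1) over 14023 genes that reached 1 FPKM in at least 3 samples, and a gene was called when its log2 fold change was at least 1 and its adjusted p at most 0.001, which are cut-offs of the study.

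In sham and day 1 DRGs 9 of the genes measured at most 0.79 FPKM, while Cd4 measured 4.49 to 7.23 FPKM. In 9 of the 10 genes every day 7 and day 14 sample was higher than every sham and day 1 sample, with all 16 samples counted. The exception was Cd5, which was at 0 FPKM in day 14 replicate 1 as in 7 of the 8 sham and day 1 samples. The share of all genes separated in this way was not computed. The same separation held for 16 of 20 macrophage markers and for 0 of 16 sensory neuron markers. Against sham alone, in the 14 samples, 23.8% of all tested genes lay higher without overlap on day 7 and 13.8% on day 14. Of the 10 genes, 9 passed the filter on low values, and all of these but Cd4 reached 1 FPKM only in day 7 or day 14 samples. The filter therefore admitted those 8 genes through the groups in which they were high, and the counts of genes called below carry that condition. It applies as well to genes of other lists that stayed under 1 FPKM in sham and day 1 samples. The macrophage markers Itgam and Siglec1 are examples.

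Cd3e, the chain that pairs with both CD3δ and CD3γ, measured 0.04, 0, 0.12 and 0.05 FPKM in sham replicates 1 to 4, and 0.04, 0.02 and 0 FPKM in day 1 replicates 1, 3 and 4. It measured 6.94, 11.61 and 4.45 FPKM in day 7 replicates 1, 2 and 4 and 3.94, 12.66, 2.93 and 2.89 FPKM on day 14. The left-out samples measured 0.04 FPKM on day 1 and 2.59 FPKM on day 7. The lowest late sample was thus 21.6 times the highest early one. On the log2(FPKM + 1) scale Cd3e rose by 2.96 ± 0.371 (SE) on day 7 (limma, adjusted p = 0.000234) and by 2.43 ± 0.343 on day 14 (limma, adjusted p = 0.000902). This scale understates the change of genes with such low sham values.

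Cd3g measured 0.29, 0.05, 0.07 and 0.15 FPKM in the sham samples and 0.53, 0.33 and 0.24 FPKM on day 1. On day 7 it measured 7.34, 10.85 and 3.38 FPKM, and on day 14 it measured 3.33, 9.37, 3.27 and 2.88 FPKM. The left-out samples read 0.38 FPKM on day 1 and 1.99 FPKM on day 7. It rose by 2.74 ± 0.339 on day 7 and by 2.20 ± 0.314 on day 14 on the log2 scale (limma, adjusted p = 0.000219 and 0.00096). Of the 3 day 1 values, 0.24 FPKM lay within the sham range and 0.33 and 0.53 FPKM lay above it.

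Cd3d was at 0 FPKM in sham replicates 1 and 2 and in all 4 day 1 samples, and at 0.06 and 0.14 FPKM in sham replicates 3 and 4. It reached 5.65, 9.46 and 2.23 FPKM on day 7 and 2.47, 7.32, 2.81 and 1.71 FPKM on day 14, with 1.26 FPKM in the left-out day 7 sample. It rose by 2.54 ± 0.370 on day 7 (limma, adjusted p = 0.000602), and on day 14 the difference of 1.99 ± 0.343 missed the cut-off on p (limma, adjusted p = 0.00271). Cd247, whose product is the main signaling chain, was the lowest of the 4 in each of the 7 late samples used. It measured 0.07 to 0.20 FPKM in the sham samples and 0.09 to 0.32 FPKM on day 1, then 2.30, 3.98 and 1.21 FPKM on day 7 and 1.43, 2.64, 0.83 and 1.07 FPKM on day 14. Its log2 differences of 1.52 ± 0.250 and 1.06 ± 0.232 passed the fold cut-off and not that on p (limma, adjusted p = 0.00123 and 0.00919).

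**Figure D1:**
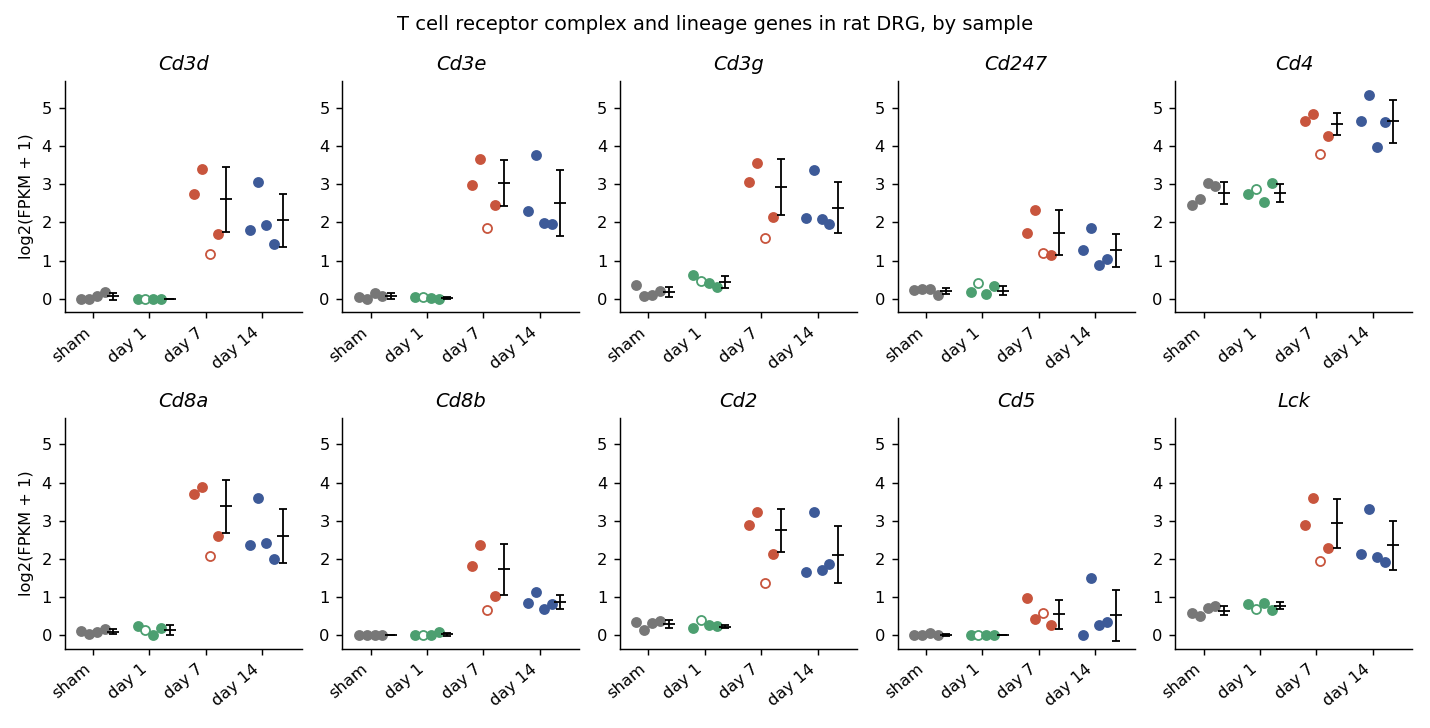
Each panel plots log2(FPKM + 1) of 1 gene by sample in the 4 groups, with open circles for the 2 samples the study left out and a black bar for the mean ± SD of the filled ones. Sham and day 1 samples lie together near 0 except for Cd4 at 4.49 to 7.23 FPKM, and day 7 and day 14 samples lie above them in 9 panels, Cd5 being the exception.

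The 4 CD3 transcripts kept similar proportions in the late samples although their sum ranged from 7.12 to 35.9 FPKM. Over the 7 day 7 and day 14 samples used, Cd3e made up 34.5% ± 3.86 (SD, n = 7) of the summed FPKM, Cd3g 31.3% ± 1.89, Cd3d 23.6% ± 3.31 and Cd247 10.6% ± 1.78. The day 7 and day 14 means of Cd3e were 34.3% and 34.6%, and those of Cd247 were 10.7% and 10.5%. The left-out day 7 sample, with the lowest sum, had 18.0% Cd247 and 17.7% Cd3d, both outside the range of the others. In the sham and day 1 samples the sum was 0.24 to 0.74 FPKM, too little for shares to be read.

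**Figure D2:**
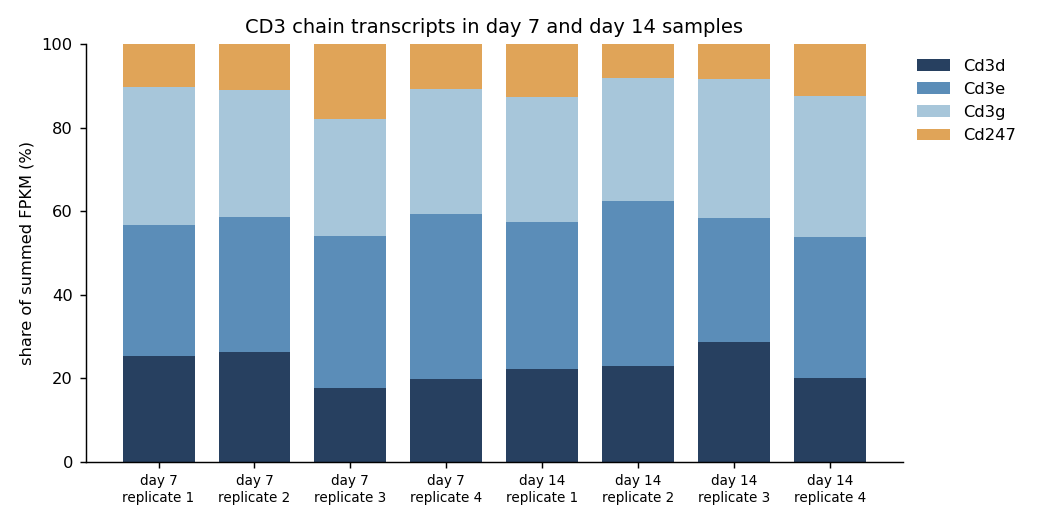
Stacked bars show the share of the summed FPKM (%) that Cd3d, Cd3e, Cd3g and Cd247 took in each of the 8 day 7 and day 14 samples. Cd247 is the smallest share, 8.25% to 12.8%, in every sample but day 7 replicate 3, where it is 18.0%.

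Cd8a, the α chain of CD8, had the largest log2 fold change of (FPKM + 1) among the 9 tested genes at both late times, an order that depends on the scale. It measured 0.08, 0.02, 0.06 and 0.13 FPKM in the sham samples and 0.18, 0 and 0.15 FPKM on day 1. It reached 11.95, 13.67 and 5.03 FPKM on day 7 and 4.17, 11.20, 4.38 and 3.02 FPKM on day 14, with 3.20 FPKM in the left-out day 7 sample. Cd8a rose by 3.29 ± 0.338 on day 7 (limma, adjusted p = 9.1e-05) and by 2.50 ± 0.313 on day 14 (limma, adjusted p = 0.000546). It was called on day 7 in each of the 25 alternative analyses in which it was tested, with adjusted p from 1e-06 to 0.00099. The ratio of group means on the linear scale was 141 on day 7 and 78.5 on day 14 for Cd8a, and 146 and 107 for Cd3e, but the sham means of 0.0725 and 0.0525 FPKM are close to 0 and these ratios are uncertain. With a pseudocount of 0.1, Cd3e also had the larger log2 fold change on day 14, at 4.99 against 4.92.

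Cd8b, the β chain, was listed at 0 FPKM in all 4 sham samples and in 3 of the 4 day 1 samples, with 0.06 FPKM in day 1 replicate 4. It measured 2.50, 4.13 and 1.04 FPKM on day 7, 0.58 FPKM in the left-out day 7 sample, and 0.81, 1.2, 0.62 and 0.76 FPKM on day 14. No late sample was at 0. Cd8b rose on day 7 (limma, adjusted p = 0.000286), and on day 14 its log2 difference of 0.88 ± 0.208 was under the fold cut-off (limma, adjusted p = 0.0137). Genes that every cell uses were not at 0 in these lists: 20 such genes had a lowest value of 3.73 FPKM. That level is far above the early values of Cd8b, so it does not show whether Cd8b was absent where it was listed at 0.

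Cd4 started from a higher level than the other genes. It was present in every sham sample, at 4.49, 5.15, 7.23 and 6.79 FPKM, and on day 1 at 5.64, 4.83 and 7.19 FPKM, with 6.31 FPKM in the left-out sample. On day 7 it measured 24.18, 27.37 and 18.11 FPKM, with 12.93 FPKM in the left-out sample, and on day 14 it measured 24.11, 39.04, 14.64 and 23.72 FPKM. The group means were 5.92 ± 1.31 (SD, n = 4) FPKM in sham, 23.2 ± 4.70 (n = 3) on day 7 and 25.4 ± 10.1 (n = 4) on day 14, a ratio to sham of 3.93 and 4.29. Cd4 rose by 1.81 ± 0.258 on day 7 and by 1.87 ± 0.238 on day 14 on the log2 scale (limma, adjusted p = 0.000496 and 0.000602).

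The macrophage markers moved at the same times as Cd4, and their part in its rise was not tested. All 20 macrophage markers were tested, and 14 were called higher on day 7 and 9 on day 14, beside 1.83% and 0.642% of all genes. At an adjusted p of at most 0.05, 20 and 18 were higher, beside 14.5% and 11.9% of all genes. The summed FPKM of the 20 markers ranged from 77.9 to 149 over the sham group and from 105 to 126 over the day 1 group. It ranged from 926 to 1373 among day 7 samples and from 580 to 1981 among day 14 samples. The largest contributors were Lyz2, a lysozyme gene, at 35.9 to 71.4 FPKM in sham and 319 to 1185 FPKM on day 14, and C1qa, a complement gene, at 5.85 to 12.5 and 41.9 to 175 FPKM. The samples with the highest Cd4 in their groups, day 7 replicate 2 and day 14 replicate 2, also had the highest macrophage sums. They were as well the highest of their groups for Cd3e. In sham replicates 1 to 4 the macrophage sums were 77.9, 96.0, 143.9 and 149 FPKM, beside Cd4 at 4.49, 5.15, 7.23 and 6.79 FPKM. In day 1 replicates 1 to 4 the sums were 105.7, 126.2, 105.4 and 125.6 FPKM, beside Cd4 at 5.64, 6.31, 4.83 and 7.19 FPKM. In bulk tissue, more cells of a type and more RNA per cell cannot be told apart, and this holds for every gene here.

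Lck, the kinase bound to both co-receptors, had a low but measurable level before day 7. It measured 0.51, 0.42, 0.65 and 0.72 FPKM in sham and 0.78, 0.79 and 0.60 FPKM on day 1, with no sample at 0. It reached 6.41, 11.16 and 3.93 FPKM on day 7 and 3.37, 8.97, 3.15 and 2.80 FPKM on day 14, with 2.85 FPKM in the left-out day 7 sample. The rise on day 7 was 2.28 ± 0.317 on the log2 scale (limma, adjusted p = 0.000425), and the day 14 difference of 1.70 ± 0.294 missed the cut-off on p (limma, adjusted p = 0.00271).

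Cd2 measured 0.27, 0.10, 0.25 and 0.31 FPKM in sham and 0.14, 0.20 and 0.19 FPKM on day 1, then 6.40, 8.44 and 3.42 FPKM on day 7 and 2.15, 8.47, 2.27 and 2.65 FPKM on day 14. It rose by 2.46 ± 0.333 on day 7 (limma, adjusted p = 0.000356), and the day 14 difference was 1.82 ± 0.308 (limma, adjusted p = 0.00246). Cd5 stayed close to the floor. It was above 0 in 1 of 8 sham and day 1 samples, at 0.04 FPKM, and measured 0.98, 0.34 and 0.20 FPKM on day 7 and 0, 1.82, 0.20 and 0.28 FPKM on day 14. Only day 14 replicate 2 passed 1 FPKM, so Cd5 did not enter the main test. With no filter its adjusted p was 0.254 on day 7 and 0.248 on day 14 (limma), and over the 3 analyses that had no filter it ranged from 0.0595 to 0.254 and from 0.109 to 0.258.

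Against the sham group, 8 of the 9 tested genes were called higher on day 7, where 1.83% of all 14023 genes were called higher, and 4 (Cd3e, Cd3g, Cd4 and Cd8a) on day 14, where the share was 0.642%. At an adjusted p of at most 0.05 with no fold limit, all 9 tested genes were higher at both times, against 14.5% of all genes on day 7 and 11.9% on day 14. All 9 tested genes were also separated from sham without overlap at both times, as were 23.8% and 13.8% of all genes. The median log2 difference over the 9 was 2.46 on day 7 and 1.87 on day 14, and that over all genes was 0.04 and 0.03. The number called on day 7 rested on single samples, since it was 1 without sham replicate 1, sham replicate 2 or day 7 replicate 1, 2 without sham replicate 3 or day 7 replicate 2, and 3 without sham replicate 4. On day 14 it was 0 without any 1 of the sham or day 1 samples or day 14 replicate 1, and 1 without day 7 replicate 1 or day 14 replicate 4. All 9 stayed at an adjusted p of at most 0.05 in each of these analyses.

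On day 1 no difference from sham was detected. None of the 9 tested genes was called by limma, none had an unadjusted p under 0.05, and none was separated from sham without overlap, where 0% of all genes were called and 6.17% lay higher without overlap. The log2 differences ran from -0.07 for Cd3d to 0.26 for Cd3g. For the genes other than Cd4, whose values were close to 0, a small change on day 1 was not detectable. For Cd4 the means of sham and day 1 differed by less than the spread between samples.

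**Figure D3:**
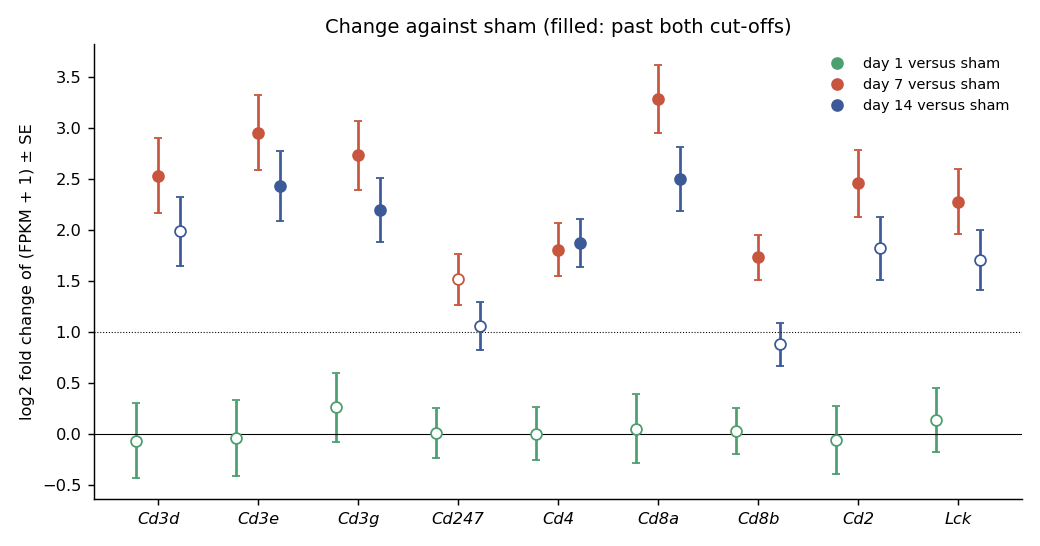
Points give the log2 fold change of (FPKM + 1) against sham with its SE for the 9 tested genes on day 1, day 7 and day 14, filled where both cut-offs were passed, and the dotted line marks the fold cut-off of 1. Day 1 points lie around 0, 8 of the 9 day 7 points are filled, and 4 of the 9 day 14 points are filled.

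From day 7 to day 14 no gene of the set was called. The log2 differences were 0.06 for Cd4 and -0.46 to -0.86 for the other 8, with a median of -0.55 over the 9, against -0.02 over all genes. The largest was that of Cd8b (-0.86 ± 0.224, limma, unadjusted p = 0.00218, adjusted p = 0.215), followed by Cd8a (-0.78 ± 0.338, unadjusted p = 0.0373, adjusted p = 0.458). These were the 2 genes with an unadjusted p under 0.05. Among all genes, 0.0143% were called lower and 0% higher. Without day 14 replicate 2, 8 of the 9 had an unadjusted p under 0.05 and Cd2 an adjusted p of 0.0336 (limma, log2 difference -1.01), still with none called, and without day 7 replicate 4 the adjusted p of Cd8b was 0.00779. The direction of Cd4 turned when single samples were left out, with log2 differences from -0.16 to 0.29.

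Within each late time the samples differed widely. Day 7 replicate 2 held the highest value among the 8 late samples for 6 genes (Cd3d, Cd3g, Cd247, Cd8a, Cd8b and Lck), and day 14 replicate 2 for the other 4 (Cd3e, Cd4, Cd2 and Cd5). The left-out day 7 sample, which carried the muscle transcripts, was the lowest of the 8 for 6 genes. Without day 14 replicate 2, the day 14 mean of Cd3e went from 5.61 ± 4.73 (SD, n = 4) to 3.25 ± 0.595 (n = 3) FPKM and that of Cd8a from 5.69 ± 3.72 to 3.86 ± 0.732 FPKM. Even so, 5 of the 9 genes were called on day 14 and 9 on day 7 without that sample. The SD of Cd2 on day 14 was 3.06 FPKM with it and 0.261 FPKM without it.

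The balance of CD4 against CD8 was read as the log2 ratio of Cd4 to Cd8a in each sample, with 0.1 FPKM added to both. It was 4.67, 5.45, 5.52 and 4.90 in sham replicates 1 to 4, 4.36, 5.62 and 4.87 on day 1, 1.0, 1.0 and 1.83 on day 7, and 2.50, 1.79, 1.72 and 2.93 on day 14. The left-out samples stood at 5.0 on day 1 and 1.98 on day 7. Sham and day 1 samples ran from 4.36 to 5.62 and late samples from 1.0 to 2.93, so that the early and late groups did not overlap. This is a ratio of transcripts and not of helper to cytotoxic T cells, since rat monocytes and macrophages also carry CD4. In sham, Cd4 measured 4.49 to 7.23 FPKM where Cd3e measured 0 to 0.12 FPKM. The part of T cells in the Cd4 values was not tested. Without an added value, Cd4 was 2.02, 2.0 and 3.6 times Cd8a on day 7 and 5.78, 3.49, 3.34 and 7.85 times on day 14, and the left-out day 7 sample was at 4.04 times.

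The ratio was lower than in sham by 3.86 on day 7 and by 2.90 on day 14. With Cd8a at 0.02 to 0.13 FPKM in sham, these sizes depend on the added value: with 1 FPKM added they were -1.48 and -0.63, with exact permutation p = 0.0571 and 0.0857. For day 7 the two-sided exact permutation p was 0.0571, the smallest that 3 samples against 4 can give, so that this comparison cannot pass 0.05. For day 14 it was 0.0286 in the two-sided exact permutation test, the smallest that 4 against 4 can give, and after adjustment over 12 ratio comparisons both were 0.171. With all 16 samples, the exact permutation p was 0.0286 for each and the adjusted p 0.0857. Day 14 and day 7 overlapped, with a difference of 0.96 (exact permutation p = 0.171), and day 1 and sham overlapped, with a difference of -0.19 (p = 0.686). The direction of the late differences held in every alternative, while that of day 1 against sham did not.

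Each co-receptor was also set against CD3. The log2 ratio of Cd8a to Cd3e was 0.20 ± 0.46 (SD, n = 4) in sham, 0.39 ± 0.33 (n = 3) on day 7 and 0.13 ± 0.31 (n = 4) on day 14, and the groups overlapped (exact permutation p = 0.686 for day 7 against sham, and a larger p for day 14). In sham and day 1 samples both genes were near 0, so that there the ratio mostly reflects the added 0.1. In the late samples Cd8a was 1.72, 1.18 and 1.13 times Cd3e on day 7 and 1.06, 0.885, 1.49 and 1.04 times on day 14. The log2 ratio of Cd4 to Cd3e was 5.33 ± 0.34 (n = 4) in sham, 1.67 ± 0.40 (n = 3) on day 7 and 2.37 ± 0.58 (n = 4) on day 14, and neither late group overlapped sham (exact permutation p = 0.0571 and 0.0286, adjusted p = 0.171 for both). The differences of -3.66 and -2.96 depend on the added value too, since Cd3e was at 0 to 0.12 FPKM in sham, and with 1 FPKM added they were -1.15 and -0.56 (exact permutation p = 0.0571 and 0.0857). The level of Cd4 exceeded that of Cd3e in every sample, 2.36 to 8.21 times in the late ones. Within CD8, the α transcript was 4.78, 3.31 and 4.84 times the β transcript on day 7 and 5.15, 9.33, 7.06 and 3.97 times on day 14.

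**Figure D4:**
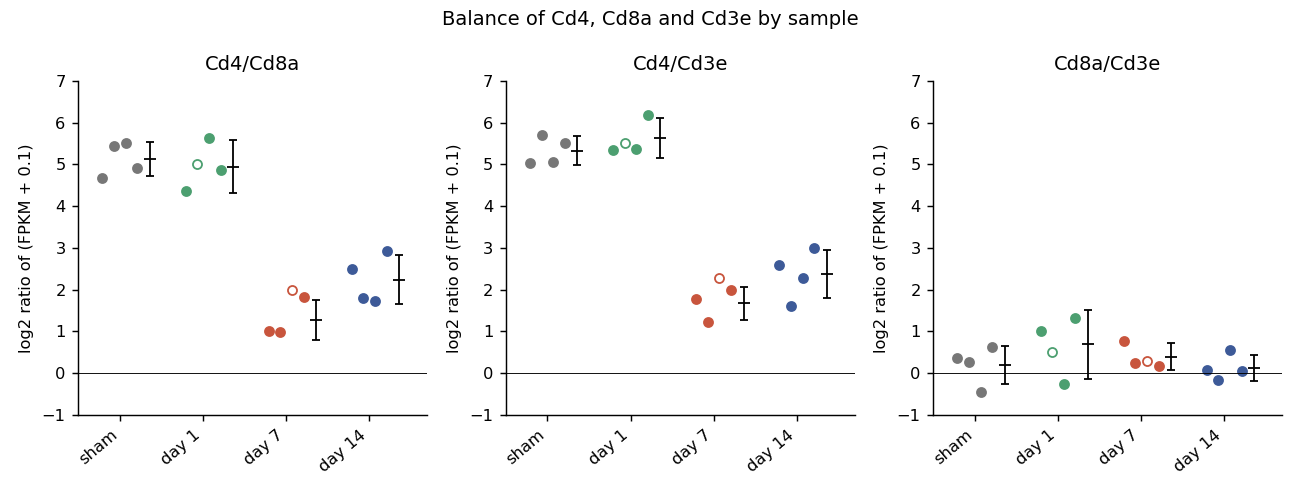
The 3 panels plot, by sample, the log2 ratios of Cd4 to Cd8a, Cd4 to Cd3e and Cd8a to Cd3e after adding 0.1 FPKM, with open circles for the 2 left-out samples and black bars for the mean ± SD of the others. Cd4 to Cd8a lies between 4.36 and 5.62 in sham and day 1 samples and between 1.0 and 2.93 in day 7 and day 14 samples, Cd4 to Cd3e shows a like gap, and Cd8a to Cd3e lies between -0.46 and 1.32 throughout.

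The genes that carry the signal of the receptor onward were next. Of 36 T cell receptor signaling genes, 31 were tested, and on day 7 5 were called higher, beside 1.83% of all genes. On that day 21 had an adjusted p of at most 0.05, all higher, and the median log2 difference of the 31 was 0.84. On day 14 none was called by limma, 18 were higher at an adjusted p of at most 0.05, and the median was 0.69. Of all genes, 14.5% and 11.9% were higher at that limit. None was called on day 1. The 3 largest of those called on day 7 were Ptprc, Was and Lat. Ptprc encodes CD45, the phosphatase of all leukocytes that activates LCK, and measured 0.40 to 0.79 FPKM in sham, 9.55, 12.93 and 4.69 FPKM on day 7 and 4.88, 13.77, 3.11 and 4.29 FPKM on day 14. It rose by 2.58 ± 0.367 on day 7 (limma, adjusted p = 0.000496), and the day 14 difference was 2.06 ± 0.340 (adjusted p = 0.00215).

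Was, the actin regulator of blood cells, measured 0.39 to 0.83 FPKM in sham and 3.37 to 8.19 FPKM on day 7, a rise of 1.96 ± 0.281 (limma, adjusted p = 0.00052). Lat, the adaptor that the receptor-bound kinase ZAP70 phosphorylates, measured 0.26 to 0.45 FPKM in sham and 2.0 to 6.51 FPKM on day 7, a rise of 1.90 ± 0.289 (limma, adjusted p = 0.000748). Ptprc and Was are also used by macrophages and other leukocytes. Genes of the list with a wider use, Csk and Fyn, had the highest levels, 54.2 and 45.1 FPKM on average over 16 samples, and neither passed an adjusted p of 0.05 on day 7 or day 14. The 12 symbols listed for the chains of the T cell receptor itself matched no row and were not analysed here.

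**Figure D5:**
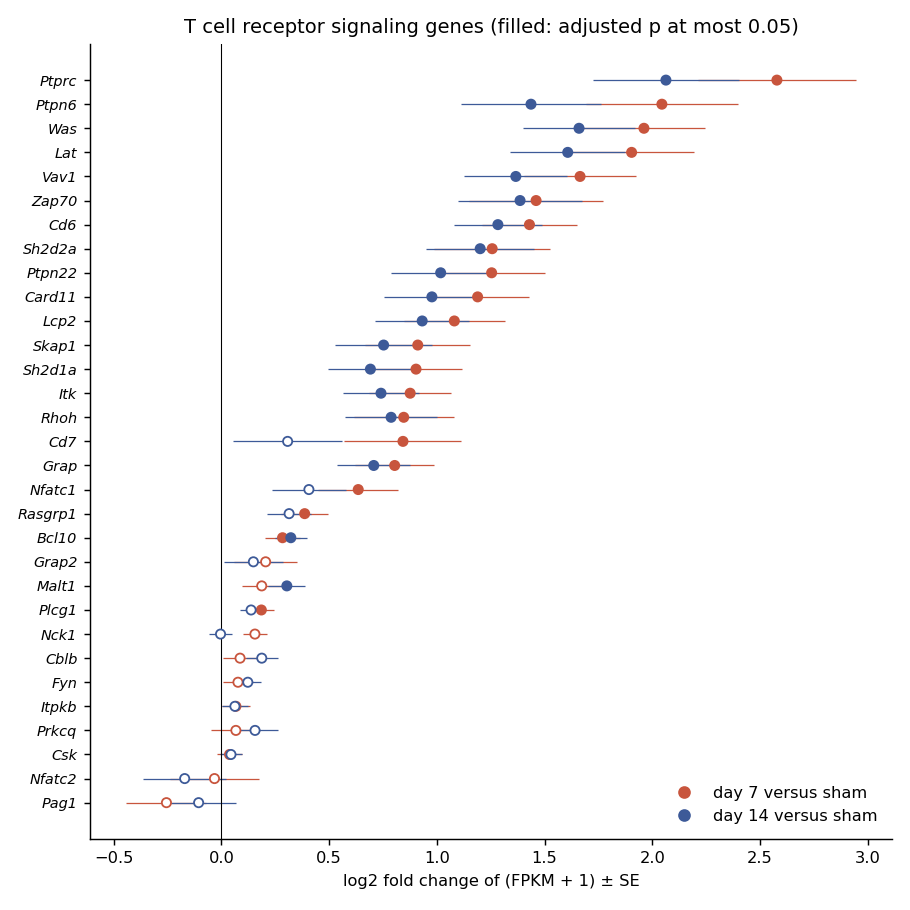
The log2 fold change of (FPKM + 1) against sham with its SE is plotted for the 31 tested T cell receptor signaling genes, red for day 7 and blue for day 14, ordered by day 7 and filled where the adjusted p was at most 0.05. On day 7 21 points are filled and on day 14 18, all to the right of 0, with Ptprc at the top at 2.58 and 2.06.

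The transcription factors that direct T cell lineages were read in the same way. Of 20 listed, 14 were tested, 1 was called on day 7 and 0 on day 14 by limma, beside 1.83% and 0.642% of all genes. At an adjusted p of at most 0.05 there were 6 and 3, all higher, beside 14.5% and 11.9% of all genes. The 1 called was Tbx21, which encodes T-bet, the factor of type 1 helper, cytotoxic and NK cells. It measured 0.03 to 0.05 FPKM in sham, 1.82, 2.45 and 0.98 FPKM on day 7 and 0.73, 2.02, 0.74 and 0.80 FPKM on day 14. Tbx21 reached 1 FPKM only in day 7 and day 14 samples, so the filter admitted it through them and its call carries that condition. It rose by 1.37 ± 0.202 on day 7 (limma, adjusted p = 0.000649), and on day 14 the difference was 0.95 ± 0.187 (adjusted p = 0.00542). Zbtb7b and Runx3, the factors of the CD4 and CD8 lineages, were present at 3.98 to 10.15 and 4.42 to 9.24 FPKM in all 16 samples, and their day 7 differences were 0.12 ± 0.173 and 0.09 ± 0.134 (limma, adjusted p = 0.694 and 0.688). Runx3 is also a factor of proprioceptive sensory neurons.

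Other lineage factors were too low to test. Foxp3, the factor of regulatory T cells, measured 0.04 to 0.24 FPKM in 15 samples and 0.70 FPKM in day 14 replicate 2. Gata3 measured 0.03 to 0.16 FPKM in sham and day 1 samples and 0.15 to 0.78 FPKM in the late ones. Eomes was at most 0.06 FPKM early and 0.14 to 1.21 FPKM late. Of 6 thymocyte genes, Rag1, Rag2, Ptcra and Dntt stayed at or below 0.13 FPKM in all samples, and the other 2 were tested without being called. Cd1d1 measured 0.80 to 1.02 FPKM in sham, with log2 differences of 0.58 on day 7 and 0.49 on day 14 (limma, adjusted p = 0.0162 and 0.0306). Arpp21 measured 9.38 to 9.88 FPKM in sham, with log2 differences of -0.19 and -0.26 (limma, adjusted p = 0.0555 and 0.0113).

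Markers of other lymphocytes were read because several are shared with T cells. Of 16 NK cell markers, 7 were tested, and 3 were called higher on day 7 and 2 on day 14, beside 1.83% and 0.642% of all genes. At an adjusted p of at most 0.05 all 7 were higher at both times, beside 14.5% and 11.9% of all genes. All of the 7 but Tyrobp reached 1 FPKM only in day 7 or day 14 samples. The filter thus admitted them through the groups in which they were high, and these counts carry that condition. The summed FPKM of the 16 markers was 5.94 to 8.28 in sham, and among late samples 63.5 to 116 (day 7) and 39.0 to 173 (day 14). The 2 most abundant, Tyrobp (20.2 to 59.2 FPKM on day 14) and Fcgr3a (6.51 to 61.1 FPKM), are also used by macrophages. In 10 of the 16 markers all 8 late samples were above all 8 sham and day 1 samples. The share of all genes separated in this way was not computed. For separation from sham alone, in the 14 samples, the share was 23.8% on day 7 and 13.8% on day 14. Among the 10 were Klrb1a (0 to 0.04 FPKM early, 0.33 to 1.55 FPKM late), Klrc1 (0 to 0.04 and 0.28 to 1.99 FPKM) and Klrd1 (0 to 0.06 and 0.48 to 2.46 FPKM), receptors of NK cells and of some T cells. Ncr1, which encodes NKp46 and is close to specific for NK cells, overlapped sham at both late times. It measured 0.49 to 0.74 FPKM in sham, 0.39 to 1.14 FPKM on day 7 and 0.32 to 0.61 FPKM on day 14. Ncr3, of the same list, lay above sham without overlap at both late times. Its values were 0.09 to 0.17 FPKM in sham, 0.67 to 1.24 FPKM on day 7 and 0.26 to 1.08 FPKM on day 14, with up to 0.41 FPKM on day 1. The part of NK cells in the values of Cd2, Cd247, Lck and Cd8a, which NK cells can express, was not tested. Of 12 B cell markers found, 2 were tested and none was called by limma (1 at an adjusted p of at most 0.05 at each late time). Ms4a1 and Pax5, which mark the lineage, were at most 0.16 and 0.13 FPKM in any sample, and the 2 most abundant of the list were Cd22 and Blnk, at 3.61 and 1.85 FPKM on average over 16 samples. Of 9 dendritic cell markers, led by Clec10a and Flt3, 5 were tested and 1 was called at each late time (2 higher and 1 lower on day 7 and 3 higher on day 14 at an adjusted p of at most 0.05). None of the tested satellite glia (7), Schwann cell (7) or skeletal muscle markers (4, led by Acta1 and Ckm) was called by limma at any time. At an adjusted p of at most 0.05, 1 satellite glia marker was higher and 1 lower on day 7 and 2 were lower on day 14. Of the 16 sensory neuron markers, 5 were lower on day 7 and 4 on day 14 at that limit, with none called, beside 3.45% and 3.21% of all genes lower. All 7 Schwann cell markers lay above sham without overlap on day 1, with a median log2 difference of 0.37 and none at an adjusted p of at most 0.05, beside 6.17% of all genes.

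The genes whose profile over the 14 samples was most like that of the CD3 chains were ranked by the mean absolute difference of log2(FPKM + 1) from the mean of Cd3d, Cd3e and Cd3g, each gene centred on its own mean. The 5 closest of 14014 genes were Ptprc (0.112), RGD1565356 (0.121), Ptprcap (0.142), Itgal (0.153) and Tnfrsf14 (0.158), and the median over all genes was 1.19. Itgal encodes the α chain of the integrin LFA-1. For Cd4 the closest were LOC108348072 (0.143), Cyth4 (0.168) and Pycard (0.171), with a median over all genes of 0.909. For Cd8a they were Ptprcap (0.161), Ctsw (0.180) and Nkg7 (0.191), with a median of 1.40. Ptprcap was thus on both the CD3 and the Cd8a list, and no gene of the Cd4 list was on either. Nkg7, a granule gene of cytotoxic T cells and NK cells, averaged 0.09 FPKM in sham, 11.2 FPKM on day 7 and 6.53 FPKM on day 14, beside 0.0725, 10.2 and 5.69 FPKM for Cd8a.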

How the data were processed

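The authors deposited 1 list of FPKM per sample, and the labels name Illumina library protocols while the study's methods name a BGI sequencing platform; the submitters' processing notes name CASAVA 1.4 and Bowtie2, and the genome build is not given in the sources used here. No read counts were used, so no counting intervals were computed; relative depth was read from the smallest steps of 55 low genes. Groups came from the labels. The 10 genes and all gene lists were chosen with earlier results of these data known. limma 3.58.1 in R 4.3.3 was fitted to log2(FPKM + 1) with eBayes and an intensity trend over 4 groups in 1 model, 14 samples and 14023 genes, with Benjamini-Hochberg adjustment over all of these. Ratios were compared by two-sided exact permutation tests (SciPy), adjusted over 12 comparisons. The p-values measure the spread between animals of these groups. The fit was tested on simulated data. Genes to be named were the 10 members, the 3 largest called signaling or lineage genes on day 7 and 7 lineage factors. The 2 most abundant markers of each other cell type and the closest profiles were also to be named. Csk, Fyn, Ncr1, Ncr3, Klrb1a, Klrc1, Klrd1, Ms4a1, Pax5 and the thymocyte genes were added after their values were seen. Some genes under this rule are not reported here. Promoters were RefSeq's. Alternatives changed the samples, pseudocount, filter, scaling, trend, cut-offs and replicate block.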

Additional observations from a re-analysis of the deposited data

Results flagged for a closer look

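Of 49 sets of 4 samples tested for a value far from the others, 5 held one; chance gives about 1 in 20. In 3 of them it was day 14 replicate 2, on the log2(FPKM + 1) scale: Cd3g stood at 3.37, against 1.96 to 2.11 in the other day 14 samples, Cd2 at 3.24, against 1.66 to 1.87, and Lck at 3.32, against 1.93 to 2.13. The same sample had the highest macrophage and NK cell marker sums of all 16, 1981 and 173 FPKM, and the part of these in its T cell values was not tested. The other 2 were values just above 0 in groups otherwise listed at 0: Cd8b stood at 0.084 in day 1 replicate 4 and Cd5 at 0.057 in sham replicate 3.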

How the results depend on the processing

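The direction of all 9 tested genes against sham on day 7 and day 14 held in every alternative, while the number passing the strict cut-offs did not; the cause was not tested. Of the 9, the number called on day 7 was 5 with no filter, 1 with a mean of at least 5 FPKM, where Cd4 alone was tested, and 3 with all 16 samples and no filter, and 1 to 9 when single samples were left out. On day 14, against 4 in the reported analysis, it was 2 with all 16 samples, 0 with only the 2 groups compared, 2 without the trend, 1 after quantile normalization, 0 with no filter, 1 with a mean of at least 5 FPKM, 8 with a pseudocount of 0.1, 8 at an adjusted p of at most 0.05 and 9 when the fold limit was also dropped, 8 with a pseudocount of 0.1 and no filter, 0 with all 16 samples and no filter, and 0 to 5 when single samples were left out. The fits that combine 2 choices were added after seeing the data. With the replicate number as a block, 6 were called on day 7 and 0 on day 14; same-numbered samples came from different animals, and 2 of 24 pairs correlated above 0.1 (range -0.113 to 0.256), with 4 of 16 samples closest to their own number, so the number was not used as a pairing. No gene of the set was called on day 1 or between day 14 and day 7 under any alternative.

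Among ratios, that of Cd8a to Cd3e changed sign against sham, to 0.073 on day 14 with a pseudocount of 1, and on day 7 to -0.29 with a pseudocount of 0.01 and -0.051 as a ratio of group means. The difference of log2 Cd4 to Cd8a on day 1 became 0.094 with a pseudocount of 0.01. With a pseudocount of 1 the late differences from sham shrank, to -1.48 and -0.63 for Cd4 to Cd8a and -1.15 and -0.56 for Cd4 to Cd3e. As ratios of group mean FPKM, the difference for Cd4 to Cd8a was -5.17 on day 7 and -4.19 on day 14, that for Cd4 to Cd3e 1.39 on day 1, -5.22 on day 7 and -4.64 on day 14, and that for Cd8a to Cd3e 1.99 on day 1. Leaving out single samples gave -0.52 to 0.11 for Cd4 to Cd8a on day 1, -0.020 to 0.34 for Cd8a to Cd3e on day 7, -0.28 to 0.077 on day 14, and -0.16 to 0.29 for the log2 change of Cd4 from day 7 to day 14. Low sham values and 3 or 4 samples per group limit these comparisons.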
